A study of Homo sapiens with 2 samples.

Results

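The genes that make, cut and bind hyaluronan were examined in MDA-MB-231, a human breast cancer cell line of the triple-negative, mesenchymal-like kind, on an array labelled SREBP1 knockdown and a control array. The set was given by name as 9 genes: the synthases HAS2 and HAS3, the depolymerase CEMIP and its relative CEMIP2, the hyaluronidases HYAL1, HYAL2 and HYAL3, and the receptors CD44 and HMMR. The set was proposed with earlier results of these arrays known, so their values are a description and no test was made. A probe set annotated to 1 of these symbols alone was found for 8 of the 9, out of 22411 genes measured in all, and HYAL1 was not analysed here. CD44 had 2 such probe sets and was represented by the one with the higher mean over both arrays. None of the 8 probe sets shared its pair of values with another probe set.

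Both cell derivatives were stable and were made with the pLKO.1 vector, a lentiviral plasmid for short hairpin RNAs. The derivative labelled SREBP1 KD carried pLKO.1-shSREBP, and the control, titled shNC, is described as carrying the vector. Both were grown in high-glucose DMEM with 10% FBS. The sources used here give neither the number of hairpin sequences nor whether the cells were clones or pools. Each derivative was read on 1 array, so there was no spread between replicates and no p-value is given.

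Hyaluronan is a long, unbranched sugar polymer of the extracellular matrix. Synthases in the plasma membrane build it from UDP-glucuronic acid and UDP-N-acetylglucosamine and extrude it, and hyaluronidases and depolymerases cut it into fragments. Cells bind the polymer and its fragments through receptors such as CD44, and in mammary carcinoma the hyaluronan coat is known for its part in adhesion and motility.

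CEMIP was the 1 measured gene of the set that differed by 1.5-fold or more, and its signal was 2.25-fold lower on the array labelled knockdown. Its protein binds hyaluronan and takes part in its depolymerisation. By the same threshold, 0.753% of the 15677 genes above background were lower and 0.383% were higher. No loss of RNA was measured for SREBF1, the gene the hairpin targets, whose signal was 1.11-fold higher on the knockdown-labelled array. The 7 measured genes of the set other than CEMIP differed by at most 1.08-fold in either direction. By these probe sets, the measured synthases, hyaluronidases and receptors of the set thus had nearly the same signal on both arrays. HAS2 was not above background on either array, and HMMR was only a little above it. The second CD44 probe set was 1.13-fold lower on the array labelled knockdown.

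The promoters of CEMIP and of its relative CEMIP2 are shown because CEMIP had the difference and CEMIP2 did not. Each is the 250 bases before the start site in the RefSeq table (GRCh38.p14), written 5′ to 3′ on the gene's strand. CEMIP lies at chr15:80779120-80779369 on the plus strand and CEMIP2 at chr9:71768514-71768763 on the minus strand. Capitals mark GC boxes (GGGCGG, either strand) and the hypoxia response core (ACGTG or GCGTG, either strand).
CEMIP: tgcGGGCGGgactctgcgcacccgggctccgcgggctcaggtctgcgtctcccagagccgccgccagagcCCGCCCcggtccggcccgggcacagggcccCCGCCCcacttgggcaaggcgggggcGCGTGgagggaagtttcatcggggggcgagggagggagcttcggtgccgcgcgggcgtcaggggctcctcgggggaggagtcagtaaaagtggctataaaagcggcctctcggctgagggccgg
CEMIP2: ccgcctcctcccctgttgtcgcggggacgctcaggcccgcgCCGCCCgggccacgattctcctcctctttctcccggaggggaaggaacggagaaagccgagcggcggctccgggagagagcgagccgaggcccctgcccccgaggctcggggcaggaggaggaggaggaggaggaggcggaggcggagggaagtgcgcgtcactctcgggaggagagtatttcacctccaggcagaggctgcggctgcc
The CEMIP window held 3 GC boxes and 1 hypoxia response core of the form GCGTG, and the CEMIP2 window held 1 GC box and no such core. Over all windows, 42.6% held a GC box and 32.2% held GCGTG, which was also in those of HAS3 and HYAL2. Whether these letters bear on the CEMIP difference was not tested. Both promoters were rich in G and C, at 74.4% for CEMIP and 71.6% for CEMIP2, against a median of 58% over all 35116 windows.

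The motif that SREBP proteins are known for, the sterol regulatory element (searched as TCACNCCAC on both strands), was not found in the windows of CEMIP or CEMIP2. It was found in that of HYAL1 alone among the 8 genes of the set that were searched, and in 0.883% of all windows. These 8 include HYAL1 and leave out HAS2, whose promoter is not reported here. SREBP proteins also bind E-boxes. The E-box CACGTG was found in the HAS3 window and in 6.34% of all windows. The form ACGTG, which was part of the E-box in HAS3, was found in 3 of the 8 genes (CD44, HAS3 and HYAL3) and in 18.5% of windows, and GCGTG in 4 (CEMIP, HAS3, HYAL1 and HYAL2) and in 32.2%. The GC box was found in 7 of the 8, the exception being HYAL2, and in 42.6% of windows. The windows of these genes were also rich in G and C, at 62.4% to 74.4% apart from HMMR at 53.6%, against the median of 58%. The part of this in the GC box count was not tested. The AP-1 motif TGANTCA was found in none of the 8 and in 6.57% of windows. A gene was counted when any of its windows matched, and HYAL3 had more windows than the others, while the shares are of windows. These matches describe letters in the window and are not evidence of binding.

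Signals are log2 units of the deposited RMA values, and differences are the array labelled knockdown minus control. A gene was taken as above background when the higher of its 2 values exceeded 3.21 log2 units, the 95th percentile of 359 olfactory receptor genes, a class this line should not express. By that floor 15677 of 22411 genes were kept, 7 of them in the hyaluronan set, and all 7 were above the floor on both arrays. Of the 359 olfactory receptor genes, 26 passed by the same rule. The SD of the differences over the genes kept was 0.19 log2 units. SREBF1, the gene the hairpin targets, read 5.29 log2 units on the array labelled knockdown and 5.13 on the control array, a difference of 0.15. No loss of the target RNA was thus measured, and every direction below refers to the label of the array. The line's markers VIM, CD44, EGFR, CAV1, AXL and LDHB were above the floor, 6 of 6. Their differences ran from -0.17 log2 units for CAV1 to 0.43 for EGFR, the latter at percentile 97.6 among the 500 genes nearest in signal. Of the luminal and epithelial markers, listed as low in this line, 5 of 8 were above the floor, namely KRT19, EPCAM, GATA3, FOXA1 and CDH1. CDH1 was above it on the control array only, and ESR1, PGR and CD24 were under it on both arrays. By sign 3 of these 5 were lower, 1 higher and 1 equal, beside 41.2% of all genes lower and 52.2% higher. None differed by 1.5-fold, where 0.753% of all genes were lower and 0.383% higher by as much. KRT19 was lowest, with a difference of -0.46 log2 units, at percentile 2.8 among the 500 genes nearest in signal. Among markers of other cell types, 4 of 5 measured for leukocytes were above the floor. So were 3 of 6 for endothelium and 3 of 6 for fibroblasts, beside 15677 of all 22411 genes. With a share this high, none of these marker counts can show which cell types were present. None of them differed by 1.5-fold, beside 0.753% of all genes lower and 0.383% higher. CD14 was lowest at -0.36 log2 units (percentile 3.2 of its level), with PDGFRB at -0.31 (percentile 2.2). CD68 was highest at 0.21 (percentile 80.4). CD68, a lysosomal protein, read 8.85 log2 units on the array labelled knockdown and 8.64 on the control array. The other leukocyte markers above the floor were CD14, CD3E and ITGAM, and PTPRC was under it on both arrays. VWF, CDH5 and KDR of endothelium were above it, and PECAM1, TEK and LYVE1 under it on both. COL1A1, PDGFRB and THY1 of fibroblasts were above it, and PDGFRA, LUM and DCN under it on both. The part of other cells in the differences below was not tested.

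Among the synthases, HAS2, which makes long hyaluronan chains, read 2.95 log2 units on the array labelled knockdown and 2.996 on the control array. Both values were under the floor, and 91.6% of the olfactory receptor genes had a lower mean, so no expression of HAS2 above background was measured and its difference of -0.046 log2 units has no direction to read. HAS2-AS1, the antisense RNA of the HAS2 locus, named after its value was seen, read 3.35 log2 units on the array labelled knockdown and 3.25 on the control array, just above the floor. HAS3, the other measured synthase, read 4.91 log2 units on the array labelled knockdown and 4.87 on the control array. Its difference of 0.033 log2 units was a 1.02-fold higher signal. HAS1 was not analysed here.

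CEMIP read 4.17 log2 units on the array labelled knockdown and 5.33 on the control array. Both values were above the floor, by 0.96 log2 units on the array labelled knockdown and 2.13 on the control array. The difference of -1.17 log2 units was the 10th lowest among the 15677 genes. None of the 500 genes nearest to it in mean signal had a lower difference, and the SD of their differences was 0.18 log2 units. In a bulk extract, fewer cells that express CEMIP and less CEMIP RNA per cell cannot be told apart.

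CEMIP2, a membrane protein of the same family for which hyaluronidase activity has been described, read 5.22 log2 units on the array labelled knockdown and 5.28 on the control array. Its difference of -0.054 log2 units was under the SD of 0.16 among the 500 genes of its level.

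**Figure D1:**
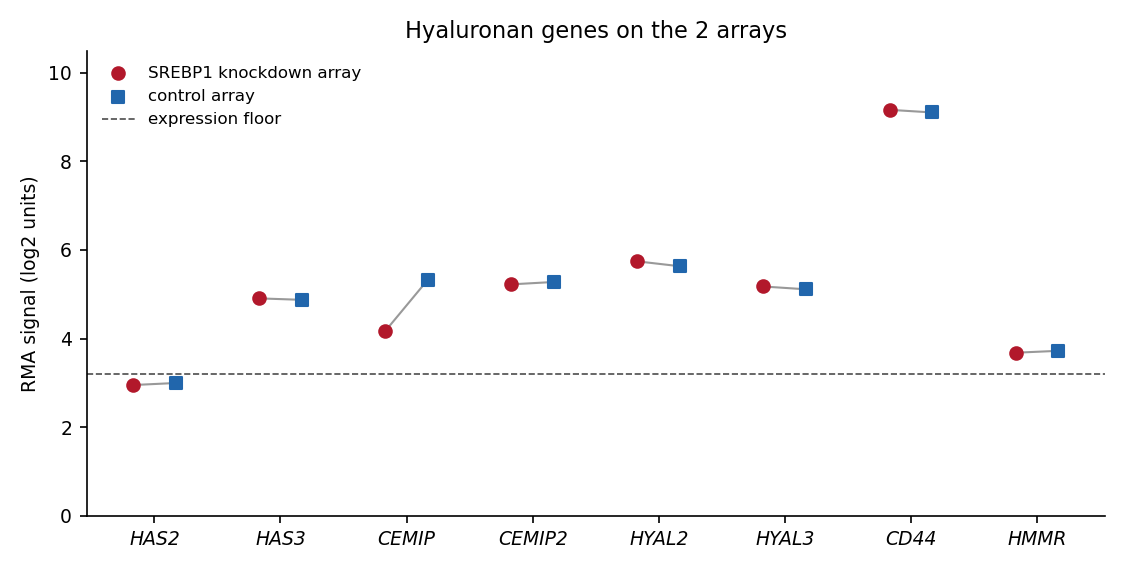
RMA signal (log2 units, vertical axis) of the 8 measured hyaluronan genes on the array labelled SREBP1 knockdown (circles) and the control array (squares), with the floor of 3.21 as a dashed line. The pair of points of CEMIP is 1.17 log2 units apart, the pairs of the other genes nearly level, and HAS2 lies under the floor; signals of different genes come from different probes and are not comparable.

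The genes beside CEMIP on the chromosome, chosen by position after the data were seen, differed by less than 1.5-fold and in both directions. ABHD17C, its nearest protein-coding neighbour on the low-coordinate side, read 4.80 log2 units on the array labelled knockdown and 5.26 on the control array, a difference of -0.46. ARNT2, the next gene out, had a difference of -0.18. On the other side MESD, a chaperone of lipoprotein receptors, had a difference of 0.092 and TLNRD1 one of 0.37 log2 units. Across the 2 nearest protein-coding genes on each side of every measured gene of the set, 20 were above the floor. None of the 20 differed by 1.5-fold, where 0.753% of all genes were lower and 0.383% higher by as much. With shares this low, 20 genes cannot show whether these loci differ from the rest. ABHD17C, the lowest of the 20, and TLNRD1, the highest, were beyond 0.32 log2 units, as was PDHX beside CD44 at -0.45. By that threshold 4.27% of all genes were lower and 3.78% higher.

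The hyaluronidases HYAL2 and HYAL3 lie on either side of HYAL1 in a cluster on chromosome 3. HYAL2, a membrane-anchored enzyme that cuts long chains, read 5.74 log2 units on the array labelled knockdown and 5.63 on the control array. Its difference of 0.11 log2 units, 1.08-fold higher, was the highest of the set and lay at the 75th percentile of the 500 genes of its level. HYAL3, whose part in hyaluronan turnover is less clear, read 5.18 log2 units on the array labelled knockdown and 5.11 on the control array, a difference of 0.064. The other hyaluronidase genes measured, HYAL4 and SPAM1, the sperm enzyme, were under the floor on both arrays.

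CD44, the main cell-surface receptor for hyaluronan, read 9.17 log2 units on the array labelled knockdown and 9.11 on the control array. Its difference of 0.060 log2 units was at percentile 47.6 among the 500 genes nearest in signal. The second CD44 probe set read 4.20 log2 units on the array labelled knockdown and 4.38 on the control array, a difference of -0.18, so that the 2 probe sets had opposite signs. The sources used here do not say which transcripts each probe set covers. HMMR, a receptor that also acts at the mitotic spindle, read 3.68 log2 units on the array labelled knockdown and 3.72 on the control array. These values were above the floor by only 0.47 log2 units on the array labelled knockdown and 0.52 on the control array, and their difference was -0.043 log2 units.

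**Figure D2:**
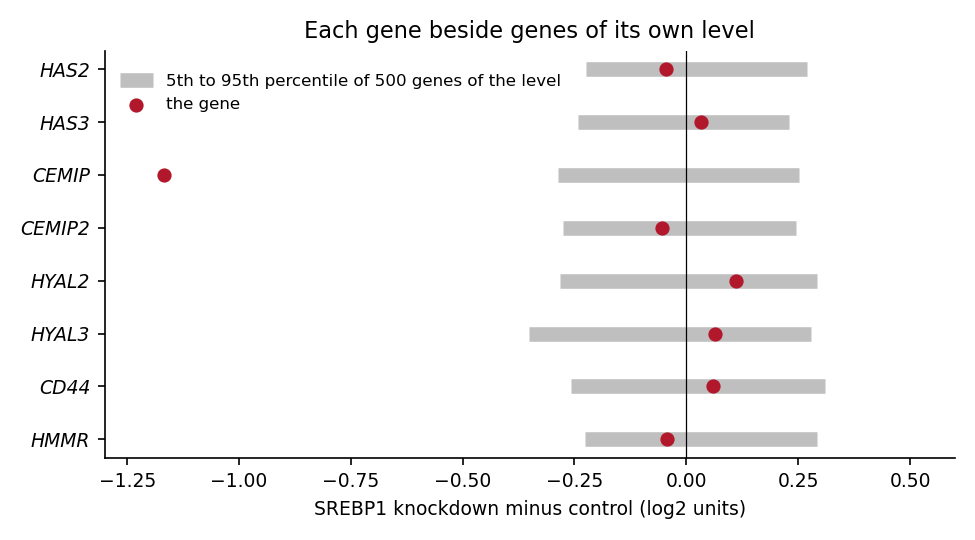
Difference between the array labelled SREBP1 knockdown and the control array (log2 units, horizontal axis) for each measured hyaluronan gene (points), beside the 5th to 95th percentile of the differences of the 500 genes nearest to it in mean signal (bars). CEMIP, at -1.17, lies outside its bar, which runs from -0.29 to 0.25, and the other 7 points lie inside theirs. By definition the bars hold most genes of a level.

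Of the 7 hyaluronan genes above the floor, 1 was lower by at least 1.5-fold and none was higher by as much, while 0.753% of the 15677 genes were lower and 0.383% higher. At 2-fold, the same gene, CEMIP, was lower, against 0.115% of all genes, and none was higher, against 0.0191%. At a lower threshold of 0.32 log2 units CEMIP was again the 1 gene lower and none was higher, where 4.27% of all genes were lower and 3.78% higher. By sign alone 3 were lower and 4 higher, where 41.2% of all genes were lower and 52.2% higher. The median difference of the 7 was 0.033 log2 units and that of all genes 0.012. The mean of the 7 had the opposite sign, -0.14, and was 0.029 over the 6 genes without CEMIP. All 7 measured genes other than CEMIP, HAS2 included, lay within 1 SD of the genes of their level, and those SDs ran from 0.15 to 0.21 log2 units. The share of all genes within 1 SD was not computed, so this count does not set these genes apart.

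**Figure D3:**
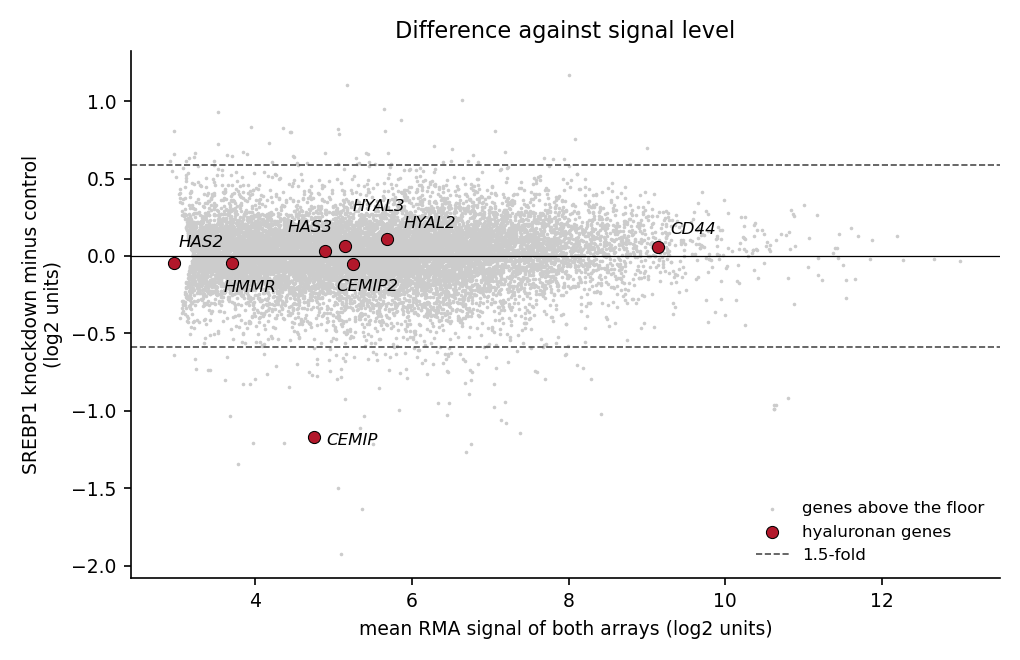
Difference between the array labelled SREBP1 knockdown and the control array (log2 units, vertical axis) against the mean signal of both arrays (log2 units, horizontal axis) for the 15677 genes above the floor (grey) and the 8 measured hyaluronan genes (red), with dashed lines at 1.5-fold. CEMIP lies below the lower line and the other 7 lie between -0.054 and 0.11.

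The rest of the pathway was described with 7 lists holding 72 genes, of which 54 were above the floor, 12 under it and 6 not analysed here. One of the 54, the receptor gene TLR4, was lower by 1.5-fold and none was higher, where 0.753% and 0.383% of all genes were. Their median was 0.039 log2 units. TLR4, an innate immune receptor for which hyaluronan fragments have been described as ligands, read 4.46 log2 units on the array labelled knockdown and 5.12 on the control array. The difference of -0.66 log2 units, 1.58-fold lower, was at percentile 0.8 among the 500 genes nearest in signal. The median of the 4 receptors above the floor was 0.041 log2 units. The remaining receptors above the floor ran from -0.0086 for TLR2 to 0.14 for LAYN (layilin), and LYVE1 and STAB2, receptors of lymphatic and sinusoidal endothelium, were under the floor on both arrays.

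Genes that supply the sugar nucleotides had a median difference of 0.072 log2 units over 9 genes, 6 higher and 3 lower by sign, none by 1.5-fold, where 52.2% of all genes were higher and 41.2% lower by sign. UAP1, which makes UDP-N-acetylglucosamine, was highest, at 7.41 log2 units on the array labelled knockdown and 7.06 on the control array. Its difference of 0.35 log2 units was a 1.27-fold higher signal. UGDH, which makes UDP-glucuronic acid, was lowest of the list, at -0.12. The lysosomal enzymes that finish the degradation of fragments differed by 0.044 log2 units for HEXA and -0.040 for GUSB.

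Hyaluronan-binding proteins of matrix and plasma had a median difference of 0.10 log2 units (13 genes), 9 higher, 3 lower and 1 equal by sign, none by 1.5-fold, beside 52.2% of all genes higher and 41.2% lower. PTX3, a pentraxin that helps to organise hyaluronan matrices, was highest at 0.28 and the link protein HAPLN2 lowest at -0.10. VCAN, which encodes the hyaluronan-binding proteoglycan versican, and TNFAIP6, which transfers heavy chains onto hyaluronan, were under the floor on both arrays.

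Partners, sheddases and splicing factors of CD44 had a median difference of 0.083 log2 units (13 genes), 9 higher and 4 lower by sign, none by 1.5-fold, beside the same 52.2% and 41.2% of all genes. The median was 0.026 with a loess curve of the difference on signal level subtracted. MMP9, a gelatinase that docks on CD44, was highest at 0.36 log2 units. ADAM10, a protease that sheds CD44, was lowest, at 7.04 log2 units on the array labelled knockdown and 7.48 on the control array, a difference of -0.44. The linker MSN (moesin), which ties CD44 to actin, had a difference of 0.25, and ESRP1, an epithelial splicing factor of CD44, was under the floor on both arrays.

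Mitotic spindle genes, listed beside HMMR, had a median difference of -0.066 log2 units (13 genes), 4 higher and 9 lower by sign, none by 1.5-fold, where 52.2% of all genes were higher and 41.2% lower by sign. The median was -0.12 with a loess curve of the difference on signal level subtracted. ASPM, a spindle pole protein, was lowest at -0.53 and the mitotic kinase PLK1 highest at 0.23. The difference of HMMR, -0.043, lay inside this range, as did those of the other measured genes of the set apart from CEMIP.

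**Figure D4:**
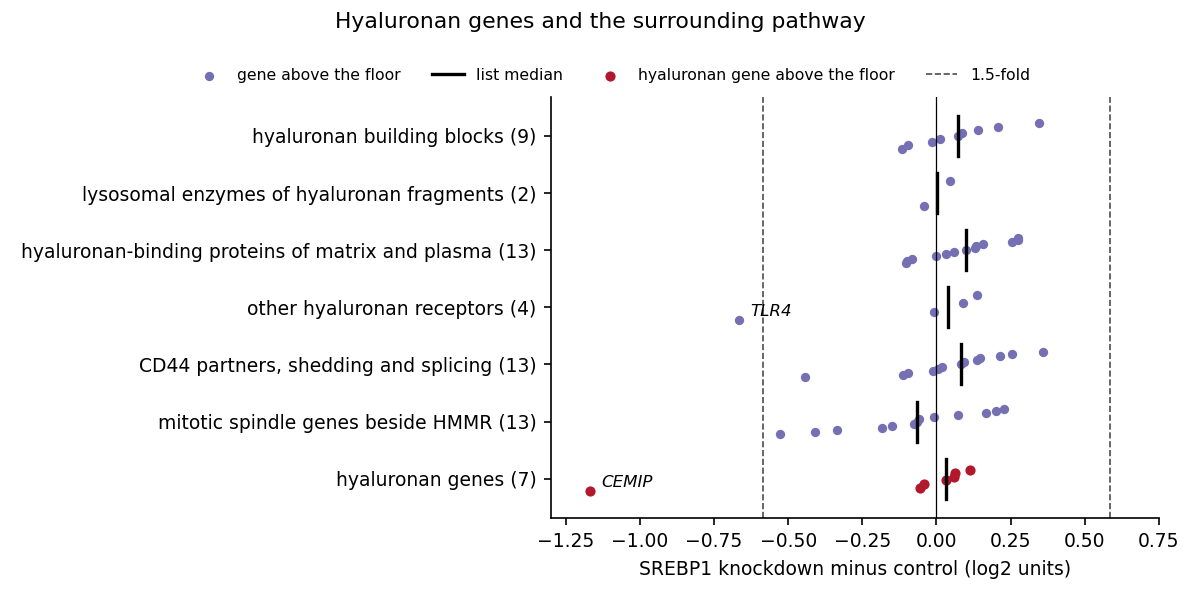
Difference between the array labelled SREBP1 knockdown and the control array (log2 units, horizontal axis) for each gene above the floor in 6 pathway lists (the seventh had none) and in the hyaluronan set; each row gives the number of genes, black ticks mark medians and dashed lines 1.5-fold. CEMIP at -1.17 and TLR4 at -0.66 are the points beyond 1.5-fold.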

How the data were processed

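Total RNA from each cell derivative was hybridised to 1 array after labelling of 250 ng with the WT PLUS kit, per the labels' protocols. The authors deposited a log2 signal for each probe set; per the submitters' processing notes, RMA and Affymetrix Expression Console were used. The sources used here give no versions and no genome build of the array. RMA corrects background, normalizes between arrays and summarises probes, so the values are relative and can understate fold changes. Medians over the 70523 probe sets were 3.17 on the array labelled knockdown and 3.16 on the control array, and the values were used as deposited. Scanner files were not used here. Arrays have no depth, and precision is limited by having 1 array in each group.

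Groups came from the genotype label. Probe sets naming 1 gene in the platform annotation (23781) were used, those naming several (1543) or none (45199) were left out, and symbols were updated through the RefSeq gene table (GRCh38.p14). The probe set with the highest mean stood for a gene. The difference of log2 signals was computed, with thresholds of 1.5-fold and 2-fold. For each gene, the SD and percentile were taken over the 500 genes nearest in mean signal. The genes of the set and the 7 lists were chosen with earlier results of these data known. The genes named were the whole set, SREBF1, and the highest, the lowest and any gene beyond 1.5-fold of each list; others are named as background or as under the floor. MSN, TLR2 and the genes beside CEMIP were added after their values were seen. Alternatives changed the centring (median, or a loess curve with fraction 0.3), the floor, the probe sets, the gene types and the thresholds. The code was tested on simulated data. The tools were numpy 2.4.6, statsmodels 0.14.6, pandas 2.3.3 and matplotlib 3.10.9 under Python 3.11.15.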

Additional observations from a re-analysis of the deposited data

How the results depend on the processing

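The CEMIP difference ran from -1.18 to -1.17 log2 units over its 5 alternatives, but not all of these could move it. CEMIP had 1 probe set and lay above the floor on both arrays. Averaging probe sets or setting low values to the floor therefore could not change it, and adding probe sets of several genes left it unchanged. Subtracting the median of all genes gave -1.18, and subtracting the loess curve gave -1.17. The number of hyaluronan genes beyond 1.5-fold, 1 lower and 0 higher, was the same in every alternative run for it, including thresholds of 2-fold and of 0.32 log2 units. This count had little room to change, since the other measured genes ran from -0.054 to 0.11 log2 units. It was not taken without CEMIP. The median difference of the set was near 0 and had no stable sign: it was 0.033 as reported, 0.047 with the floor raised by 1 log2 unit, which leaves out HMMR, and -0.0053 with the loess curve taken off, -0.043 when probe sets were averaged, -0.0049 with no floor and -0.14 as a mean. Without CEMIP, an alternative chosen after seeing the data, it was 0.047. CD44 was the 1 other gene of the set whose sign turned, to -0.0053 after the curve was subtracted and -0.058 with its 2 probe sets averaged. In the pathway lists, 0 of 54 genes were lower at 2-fold (0.115% of all genes), and 5 were lower and 2 higher at 0.32 log2 units (4.27% and 3.78% of all genes). Over all genes, 36 rather than 60 were higher by 1.5-fold with protein-coding genes only. With the curve subtracted, list medians were -0.12 for mitotic spindle genes, 0.026 for CD44 partners and 0.026 for other receptors, each over 1.5 times away from the reported value, and -0.025 for lysosomal enzymes, whose median was -0.010 with the median of all genes subtracted. With the floor raised, those of matrix and plasma proteins and other receptors were 0.16 and 0.090. No paired analysis was possible because each group had 1 array. Signals close to background limit what could be seen for HAS2 and HMMR.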
